A study of Homo sapiens with 3 samples.

Results

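The long noncoding and host RNAs described here are 150 genes of LNCaP, a human prostate cancer cell line that responds to androgen. They were chosen by name and by signal. Of 20319 genes with a symbol on the array, 854 carried the symbol of a small nucleolar RNA (snoRNA) host (SNHG), a long intergenic noncoding RNA (LINC), a microRNA host (MIR...HG) or an antisense RNA (-AS), or were GAS5, ZFAS1, MALAT1 or DANCR. The 150 had a mean log2 signal over all 6 signal columns of 8 or more, as did 8600 genes in all. NEAT1 was also part of the rule and is not analysed here. The signal chose the members, and the ratio between the samples of an array did not. The 3 members nearest above this floor were LINC01347, LINC00339 and GABPB1-AS1, with mean log2 signals of 8.02, 8.04 and 8.04. The 3 nearest below it were NDUFB2-AS1, SLCO4A1-AS1 and PAXIP1-AS1, with 7.97, 7.95 and 7.95.

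SHOT-RNAs are pieces of transfer RNAs, and each was lowered with a small interfering RNA (siRNA). For 5'-Lys KD (20 nM siRNA) the target was a 5' piece of tRNA-Lys. For 5'-Asp KD (20 nM) and 3'-Asp KD (10 nM) the targets were a 5' and a 3' piece of tRNA-Asp. Both 5' pieces were targeted at 20 nM and the 3' piece at 10 nM, so fragment end and dose cannot be told apart. The other sample of each array came from LNCaP cells given an siRNA named R-Luc. All cells were harvested 72 h after transfection, and total RNA was hybridised on 1 two-colour array per knockdown, so no group had a replicate and no test was possible. "Higher" and "lower" therefore describe single arrays. The levels of the tRNA pieces themselves are not analysed here, so the knockdowns could not be checked.

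By the dye labels, Cy3 carried the knockdown and Cy5 the R-Luc sample on every array, and the first signal column was read as Cy3. The column names put the knockdown in the first column for 5'-Lys KD and in the second for both Asp arrays. Signs follow the dye labels, and all Asp signs below would turn if the column names were right. On both Asp arrays the values called knockdown and R-Luc would then change places. Spreads, means and rankings of R-Luc signal over the arrays would not hold in that case. The log2 ratios of 10 spike-in probes, first over second column, correlated at 0.999 or more between each pair of arrays. With 1 dye orientation, an effect of a dye on a probe and an effect of the knockdown cannot be told apart on an array. Nothing in the labels says whether the R-Luc sample was the same RNA on all arrays, so the 3 ratios of a gene may share a control. Median intensities on the 5'-Lys KD array were 94.0 (Cy3) and 95 (Cy5). They were 70.7 and 70.9 on the 5'-Asp KD array, and 79.7 and 80.9 on the 3'-Asp KD array. All 7 luminal prostate markers on the array were above the floor, and 0 of 13 markers of basal, immune, fibroblast or endothelial cells were.

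Long noncoding RNAs are transcribed and processed much like messenger RNAs without coding for a protein. SnoRNA hosts carry in their introns the small RNAs that guide modification of ribosomal and spliceosomal RNA, and many of their spliced transcripts are translated briefly and removed by nonsense-mediated decay. MicroRNA hosts are cut by DROSHA to release hairpins, which DICER1 turns into mature microRNAs. Antisense RNAs start on the strand opposite a coding gene, often close to its promoter.

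The symbols come from an older array annotation. In the current RefSeq table, 136 of the 150 are annotated as long noncoding RNAs, 11 as protein-coding genes and 2 as transcribed pseudogenes, and 1 (LINC00087) was not matched. The name "noncoding" therefore does not hold for 11 members, among them LINC00493 (now SMIM26), LINC00998 (SMIM30), LINC01420 (NBDY) and TOPORS-AS1 (SMIM27), which encode small proteins. Of the members, 117 keep their symbol and 33 have another. By class, 79 were antisense RNAs, 50 LINC transcripts, 16 snoRNA hosts and 4 microRNA hosts, with MALAT1 apart from these.

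The member that differed on all 3 arrays was MIR17HG, the host of the miR-17-92 cluster, which is known as a target of MYC and a growth-promoting microRNA locus. Its gene lies at chr13:91347687-91354577 on the plus strand (GRCh38.p14) and holds 6 microRNA genes with 12 mature microRNAs and 9 different seeds. The main arm of each is shown because these are the products of that transcript. Sequences are from RefSeq, with the seed (bases 2 to 8) in capitals.

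miR-17-5p: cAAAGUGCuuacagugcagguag
miR-20a-5p: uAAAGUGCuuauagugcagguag
miR-18a-5p: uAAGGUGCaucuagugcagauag
miR-19a-3p: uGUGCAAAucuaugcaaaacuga
miR-19b-3p: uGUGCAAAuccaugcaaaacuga
miR-92a-3p: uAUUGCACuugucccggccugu

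miR-17-5p and miR-20a-5p share the seed AAAGUGC, and miR-19a-3p and miR-19b-3p share GUGCAAA. The other 3 microRNA hosts among the members, MIR22HG, MIR99AHG and MIRLET7BHG, release microRNAs of other seeds, and let-7 microRNAs come from 2 of them.

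MIR22HG, miR-22-3p: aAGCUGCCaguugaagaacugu
MIR99AHG, miR-99a-5p: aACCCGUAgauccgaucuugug
MIR99AHG, let-7c-5p: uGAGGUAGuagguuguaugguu
MIR99AHG, miR-125b-5p: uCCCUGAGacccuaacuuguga
MIRLET7BHG, let-7a-5p: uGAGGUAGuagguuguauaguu
MIRLET7BHG, let-7b-5p: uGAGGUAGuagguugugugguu

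let-7a-5p, let-7b-5p and let-7c-5p share the seed GAGGUAG. Mature microRNAs were not measured by these arrays, and the values that follow are of the host transcripts.

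The question of the design is how transcript levels after each knockdown compared with those after the control siRNA. Among the 150 members most ratios were small on every array. A gene is counted as higher or lower when its ratio, centred on the array's median, was at least 1.5-fold. After 5'-Lys KD 6 members were higher and 4 lower, while 4.43% of all genes above the floor were higher and 6.86% lower. After 5'-Asp KD 4 members were higher and 8 lower, against 3.33% and 4.03% of all genes. After 3'-Asp KD 1 member was higher and 6 were lower, against 2.14% and 2.36% of all genes. Of the 150 members, 2.67% were lower after 5'-Lys KD and 5.33% lower after 5'-Asp KD. After 3'-Asp KD 0.667% were higher. The share of members was below that of all genes for lower genes after 5'-Lys KD and for higher genes after 3'-Asp KD, and above it for lower genes on both Asp arrays. With 1 array each, none of these counts is a result about long noncoding RNAs as a class. At 2-fold, 0 members were higher and 2 lower after 5'-Lys KD (0.523% and 1.36% of all genes), and 0 differed after 5'-Asp KD (0.291% and 0.5%) or 3'-Asp KD (0.209% and 0.256%). The median log2 ratio of the members was 0.08 after 5'-Lys KD, -0.0021 after 5'-Asp KD and -0.03 after 3'-Asp KD, and that of all genes 0.0011, -0.0004 and -0.0008.

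**Figure D1:**
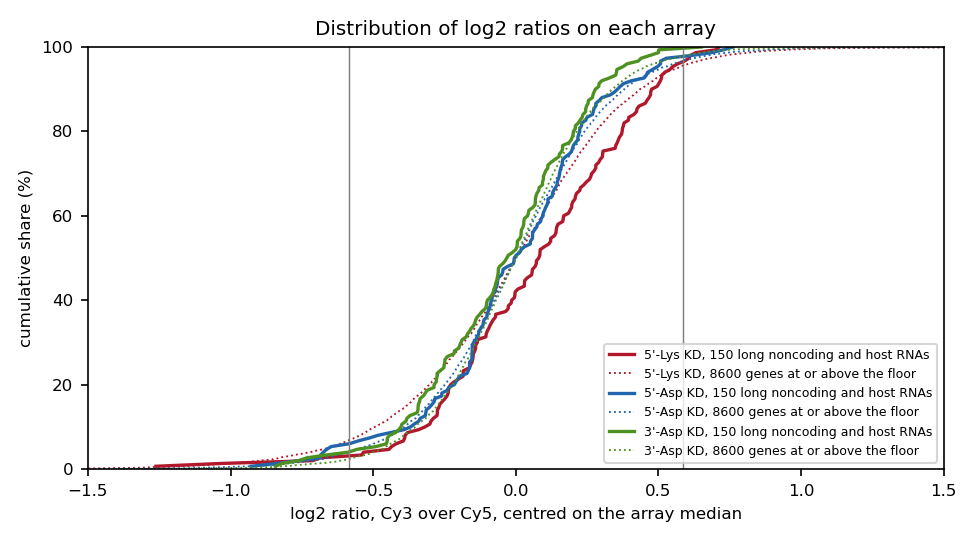
Cumulative share (percent) of log2 ratios, Cy3 over Cy5, for the 150 long noncoding and host RNAs (thick lines) and all 8600 genes at or above the signal floor (dotted lines), 1 colour per array; vertical lines mark 1.5-fold. The 5'-Lys KD curve of the members lies to the right of all genes (median 0.08 against 0.0011), and the Asp curves lie close to theirs.

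Where 3 values follow each other they are in the order 5'-Lys KD, 5'-Asp KD, 3'-Asp KD, and intensities are as deposited, not scaled between arrays. The spread of log2 ratios across members (SD) was 0.34, 0.31 and 0.28 on the 3 arrays, against 0.39, 0.32 and 0.29 over all genes. The R-Luc signal of a member, after centring, varied between the arrays with a median SD of 0.14 on the log2 scale, and for 1 in 20 members by over 0.39. This SD is the only measure of spread between hybridisations, and it is given beside the ratios of many genes, not all, as the R-Luc SD. It rests on the dye labels, and by the column names it would mix control and knockdown samples. For 30 members with 2 or more probes, the median SD between probes was 0.19, 0.17 and 0.14 on these arrays. The other 120 members rest on a single probe. Of the 150, 127 were within 1.5-fold on all arrays, 18 passed it on 1 array, 4 on 2 arrays and 1 on all 3. The same tally was not made for all genes, so these counts are a description only.

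**Figure D2:**
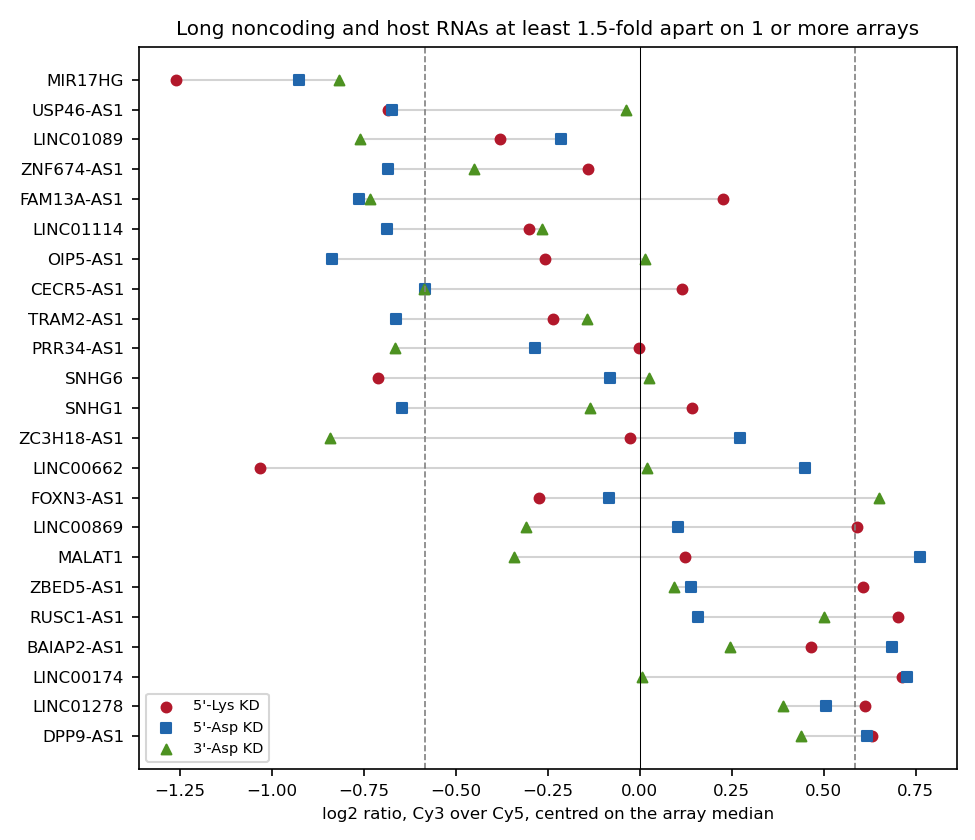
Log2 ratios, Cy3 over Cy5, of the 23 members at least 1.5-fold apart on 1 or more arrays, ordered by their mean; circles are 5'-Lys KD, squares 5'-Asp KD and triangles 3'-Asp KD, and dashed lines mark 1.5-fold. MIR17HG is beyond the line on all arrays, and most others on 1 array only.

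MIR17HG was lower on all 3 arrays by the dye labels. It was read by 1 probe, with a mean log2 signal of 8.46, near the floor of 8. Its intensity was 199 in 5'-Lys KD cells against 473 in R-Luc cells, 304 in 5'-Asp KD cells against 571, and 255 in 3'-Asp KD cells against 450. All 3 knockdown intensities were, by the dye labels, below all 3 R-Luc intensities. The log2 ratios were -1.26, -0.93 and -0.82, with an R-Luc SD of 0.27. By the column names the Asp ratios would be 0.93 and 0.82, and the gene would then have been lower after 5'-Lys KD and higher in both Asp knockdowns.

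None of the other microRNA hosts passed 1.5-fold. MIR22HG, host of miR-22, had log2 ratios of 0.45, 0.16 and 0.23. MIR99AHG, read by 3 probes, had -0.34, 0.25 and 0.07, and MIRLET7BHG, read by 2, had 0.20, 0.20 and 0.06. The hosts of let-7 microRNAs therefore stayed within 1.5-fold on all arrays. Among the 4 genes listed for the processing and export of microRNAs, DICER1 was higher on all arrays by the dye labels. This enzyme, which cuts hairpins to mature microRNAs, had 0.63, 0.76 and 1.07, with an R-Luc SD of 0.35. By the column names DICER1 would be lower on both Asp arrays. DROSHA, which cuts the hairpin out of the host transcript, had -0.50, -0.28 and -0.40, within 1.5-fold. DICER1-AS1, a member whose start lies 159 bp from that of DICER1 on the opposite strand, had 0.04, -0.15 and -0.22.

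**Figure D3:**
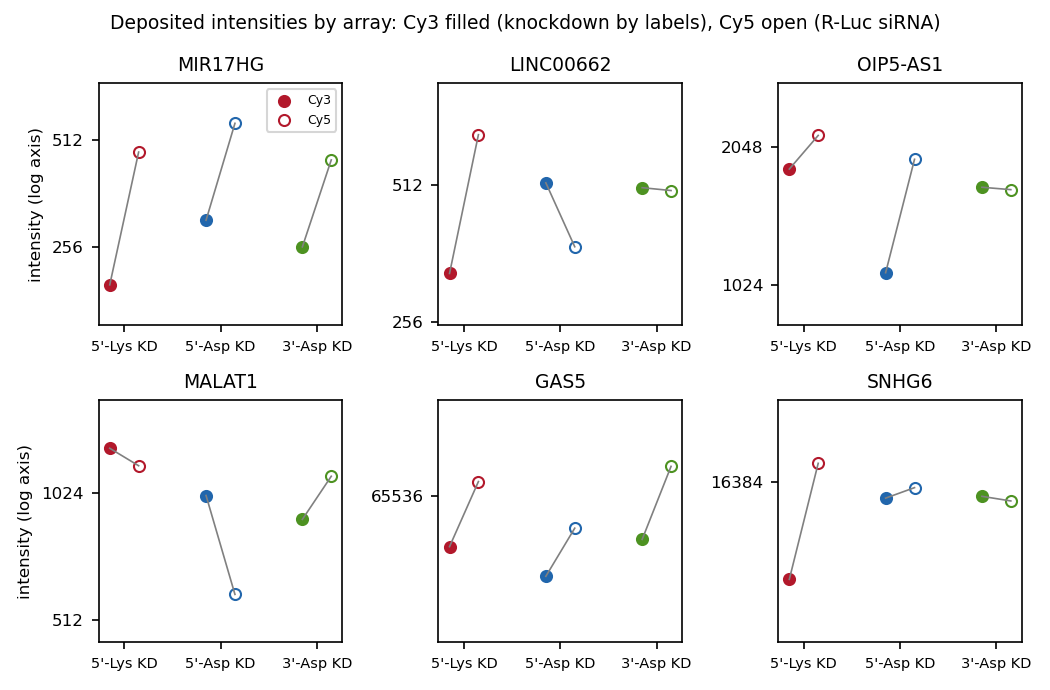
Deposited intensities (log axis) of MIR17HG, LINC00662, OIP5-AS1, MALAT1, GAS5 and SNHG6 on each array, with filled points for Cy3 (knockdown by the labels) and open points for Cy5 (R-Luc siRNA). MIR17HG and GAS5 are lower in Cy3 on all 3 arrays, GAS5 within 1.5-fold. LINC00662, OIP5-AS1, MALAT1 and SNHG6 are at least 1.5-fold apart on 1 array, with smaller differences on others.

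The 16 snoRNA hosts went both ways on each array, and their median log2 ratios were -0.02, -0.03 and 0.02. Their median ratio regardless of sign was 0.25, 0.15 and 0.21 on the log2 scale, against 0.23, 0.20 and 0.17 for all genes, so they lay about as far from 0 as other genes. One was lower after 5'-Lys KD (SNHG6), 1 after 5'-Asp KD (SNHG1) and 0 after 3'-Asp KD, and 0 were higher on any array, where 6.86%, 4.03% and 2.36% of all genes were lower and 4.43%, 3.33% and 2.14% higher.

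SNHG6 was lower after 5'-Lys KD only. Its intensity was 10907 in 5'-Lys KD cells against 17676 in R-Luc cells, 15292 in 5'-Asp KD cells against 15974, and 15407 in 3'-Asp KD cells against 15113. Its log2 ratios were -0.71, -0.08 and 0.02. The R-Luc SD was 0.07, and the 5'-Lys KD intensity stood below the other 5 columns.

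SNHG1, the host of a row of C/D box snoRNAs, is called lower after 5'-Asp KD on the mean of 2 probes that disagree. The mean log2 ratios were 0.14, -0.65 and -0.14. One probe had -0.35, -0.03 and -0.01, and the other, designed on an expressed sequence tag, had 0.63, -1.26 and -0.26. The call rests on the second probe, and with the brighter probe alone the 5'-Asp KD ratio was -0.04.

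GAS5, a host of C/D box snoRNAs whose spliced RNA is known to accumulate in growth-arrested cells, stayed within 1.5-fold but had the same sign on all arrays by the dye labels. Its intensity was 53506 in 5'-Lys KD cells against 69283 in R-Luc cells, 47569 in 5'-Asp KD cells against 57582, and 55069 in 3'-Asp KD cells against 73591. On the log2 scale the ratios were -0.39, -0.29 and -0.42, and by these labels all knockdown values were below all R-Luc values. The R-Luc SD was 0.16.

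SNHG8 had log2 ratios of 0.28, 0.48 and 0.47, but 1 of its 2 probes gave 0.64, 0.75 and 0.78 and the other -0.08, 0.21 and 0.16. SNHG7 had -0.39, -0.20 and -0.17. SNHG11 had 0.51, -0.15 and 0.01, and SNHG10 had 0.38, -0.30 and -0.28. None of these 4 passed 1.5-fold on any array. SNHG12 had -0.39, 0.15 and -0.34, and SNHG5 had -0.29, -0.06 and 0.03. ZFAS1, which starts beside ZNFX1 and hosts C/D box snoRNAs, had -0.07, 0.03 and 0.24. DANCR, known for holding back differentiation in progenitor cells, had -0.22, 0.22 and 0.29. The remaining 5 hosts, SNHG3, SNHG9, SNHG15, SNHG17 and SNHG20, lay between -0.32 and 0.27 on all arrays. LRRC75A-AS1, counted among the antisense RNAs by its platform symbol and now named SNHG29, had -0.14, 0.19 and -0.08.

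Many snoRNA hosts, like ribosomal protein genes, are known to start at a C followed by a run of pyrimidines, the terminal oligopyrimidine tract. A C within 5 bases of the RefSeq start followed by at least 4 further C or T letters on the gene's strand was found in 7 of the 13 snoRNA hosts with a promoter entry (53.8%). The same letters were found in 26 of 119 members with an entry (21.8%), 51 of 68 ribosomal protein genes (75%) and 21.1% of all 27305 promoters. The match is a description of letters and not of translation. Starts of 4 hosts from RefSeq (GRCh38.p14) show the tract in capitals within 25 bases around the start.

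SNHG5, chr6:85678719-85678743, minus strand: gcacttcggtCTTTTacgtcggcct
ZFAS1, chr20:49278632-49278656, plus strand: gccattcgttCTTTCgcgtctgcgg
SNHG12, chr1:28581859-28581883, minus strand: gcttcagcgCCCTTTCTCCCCgccg
SNHG7, chr9:136728170-136728194, minus strand: ccttctcgtCCTCTgcgtgcgccgg

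These 4 hosts were within 1.5-fold on all arrays, as given above. For the 8 core proteins of snoRNA particles above the floor, from a list of 10 that includes FBL and DKC1, 0 were higher or lower on any array, and their log2 ratios ran from -0.43 to 0.30.

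Some small RNAs inside the hosts had other ratios than the host transcripts. All 16 hosts hold snoRNA or small Cajal body RNA genes within their span, 45 in all. Of these, 10 were on the array and 5 above the floor, and SNORA26, SNORA60, SNORA71C, SNORA78 and SNORD12B were below it. Of these 5, 4 RNAs were at least 1.5-fold higher on each array, while the 3 hosts that hold them were within 1.5-fold. Of all genes, 4.43%, 3.33% and 2.14% were higher. By the column names these 4 RNAs would be higher after 5'-Lys KD and lower, by the same folds, on both Asp arrays.

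SCARNA13 lies in SNHG10 and is a guide for spliceosomal RNA. Its intensity was 6366 in 5'-Lys KD cells against 1266 in R-Luc cells, 1726 in 5'-Asp KD cells against 546, and 1246 in 3'-Asp KD cells against 557. This gave log2 ratios of 2.31, 1.64 and 1.16, against 0.38, -0.30 and -0.28 for SNHG10. The R-Luc SD of SCARNA13 was 0.57.

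SNORA73A and SNORA73B, which take part in processing of ribosomal RNA, lie in SNHG3. SNORA73A had an intensity of 1475 in 5'-Lys KD cells against 598 in R-Luc cells, 1099 in 5'-Asp KD cells against 480, and 1199 in 3'-Asp KD cells against 519. Its log2 ratios were 1.29, 1.18 and 1.20, with an R-Luc SD of 0.04, and those of SNORA73B were 0.98, 0.88 and 0.97. SNHG3 had 0.06, -0.14 and -0.06. All 3 knockdown values of SNORA73A were, by the dye labels, above all 3 R-Luc values.

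SCARNA16 in SNHG20 had log2 ratios of 1.14, 1.03 and 0.65, against -0.0045, 0.0011 and -0.32 for its host. SNORA71A in SNHG17 had 0.49, 0.34 and 0.53, against 0.21, 0.16 and 0.03, so both were within 1.5-fold. Higher ratios were also seen for RNAs outside the hosts. RMRP, the RNA of the RNase MRP enzyme, had 0.98, 0.80 and 0.94, and TERC, the telomerase RNA, had 0.76, 0.60 and 0.63. Of 7 genes above the floor in a list of further noncoding RNAs, its members of the rule left out, RMRP and TERC were the 2 that passed 1.5-fold on any array. The other 5 were PVT1, TUG1, CRNDE, TP53TG1 and HCG18. By the dye labels the ratios of these small RNAs, RMRP and TERC have the same sign on all arrays in 1 dye orientation, and a part played by the dye or by RNA length was not tested. Whether probes for nested RNAs also bound unspliced host RNA was not tested.

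**Figure D4:**
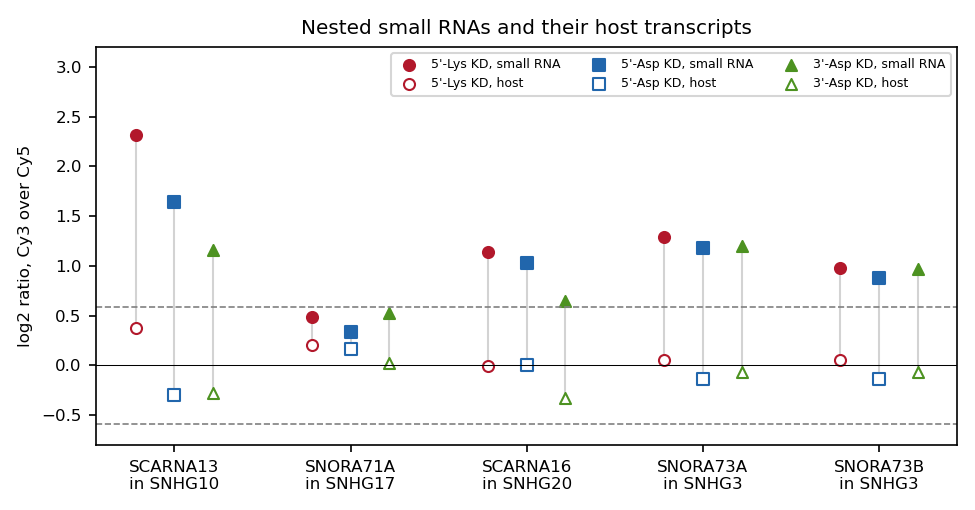
Log2 ratios, Cy3 over Cy5, of 5 small RNAs above the floor (filled) and of the snoRNA host that contains each (open), for 5'-Lys KD (circles), 5'-Asp KD (squares) and 3'-Asp KD (triangles); dashed lines mark 1.5-fold. SCARNA13, SCARNA16, SNORA73A and SNORA73B lie above the line on all arrays by the dye labels (the Asp signs turn by the column names), and all host points lie between the lines.

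MALAT1, an abundant nuclear RNA of speckles (chr11:65497738-65506516), was higher after 5'-Asp KD alone. Its intensity was 1309 in 5'-Lys KD cells against 1189 in R-Luc cells, 1011 in 5'-Asp KD cells against 589, and 887 in 3'-Asp KD cells against 1123. The log2 ratios were 0.12, 0.76 and -0.34. The 5'-Asp KD difference goes with a low R-Luc value on that array, and the R-Luc SD was 0.47. Against the mean R-Luc signal of all arrays, with the arrays normalised to one another first, the ratio was 0.22. Of 12 paraspeckle proteins above the floor, 0 were higher or lower after 5'-Lys KD or 3'-Asp KD and 1 was lower after 5'-Asp KD (4.03% of all genes). That gene, TARDBP, had log2 ratios of -0.26, -0.73 and -0.18.

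Among the 50 LINC transcripts, 3 were higher and 1 lower after 5'-Lys KD, 1 was higher and 1 lower after 5'-Asp KD, and 0 were higher and 1 lower after 3'-Asp KD. Of all genes, 4.43% were higher and 6.86% lower after 5'-Lys KD, 3.33% and 4.03% after 5'-Asp KD, and 2.14% and 2.36% after 3'-Asp KD. The medians of the LINC transcripts were 0.10, 0.09 and -0.04. The lowest log2 ratio of any member other than MIR17HG was that of LINC00662 (chr19:27790493-27793940, minus strand). Its intensity was 327 in 5'-Lys KD cells against 661 in R-Luc cells, 518 in 5'-Asp KD cells against 374, and 505 in 3'-Asp KD cells against 498. Its log2 ratios were -1.03, 0.45 and 0.02, with an R-Luc SD of 0.29. The 5'-Lys KD value was the lowest of the 6 deposited values and its R-Luc partner the highest.

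LINC00174 was higher on both arrays of 5' fragments. It had 1147 in 5'-Lys KD cells against 692 in R-Luc cells, 478 in 5'-Asp KD cells against 285, and 557 in 3'-Asp KD cells against 554. On the log2 scale the ratios were 0.71, 0.73 and 0.01. The R-Luc values ran from 285 to 692 (R-Luc SD 0.56), the widest among the members, and against the mean R-Luc signal the 5'-Asp KD ratio was 0.10.

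LINC01278 had an R-Luc SD of 0.09 and ratios of one sign by the dye labels. It had 800 in 5'-Lys KD cells against 518 in R-Luc cells, 609 in 5'-Asp KD cells against 423, and 652 in 3'-Asp KD cells against 497. This gave log2 ratios of 0.61, 0.51 and 0.39, so it passed 1.5-fold after 5'-Lys KD only. LINC00869, read by 4 probes, was higher after 5'-Lys KD with 0.59, and had 0.10 and -0.31 on the Asp arrays. LINC01089 was lower after 3'-Asp KD with -0.76, and had -0.38 and -0.22 after 5'-Lys KD and 5'-Asp KD. LINC01114 was lower after 5'-Asp KD with -0.69, and had -0.30 and -0.27 after 5'-Lys KD and 3'-Asp KD.

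LINC01001, read by 2 probes, was close to the threshold on every array, with 0.54, 0.50 and 0.50 and probe SDs of 0.14, 0.17 and 0.04. LINC00493, which encodes the small protein SMIM26, had 0.51, 0.06 and 0.07. NORAD, which is known to bind PUMILIO proteins, had -0.13, -0.05 and -0.56, within 1.5-fold. Its 2 probes lay apart by a like amount on each array, with 0.22, 0.31 and -0.25 for one and -0.48, -0.40 and -0.87 for the other.

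Of the 79 antisense RNAs, 3 were higher and 1 lower after 5'-Lys KD, 2 higher and 5 lower after 5'-Asp KD, and 1 higher and 4 lower after 3'-Asp KD. In percent, 3.80 were higher and 1.27 lower after 5'-Lys KD, 2.53 and 6.33 after 5'-Asp KD, and 1.27 and 5.06 after 3'-Asp KD. Over all genes these shares were 4.43% and 6.86%, 3.33% and 4.03%, and 2.14% and 2.36%. The medians of the antisense RNAs were 0.09, -0.07 and -0.04. Of these, 14 now carry names of divergent transcripts (-DT), which start beside a coding gene and run away from it.

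OIP5-AS1 (chr15:41282697-41313338, plus strand), a conserved RNA also called Cyrano that is known to promote the decay of miR-7, was lower after 5'-Asp KD. It had 1830 in 5'-Lys KD cells against 2165.8 in R-Luc cells, 1090 in 5'-Asp KD cells against 1922, and 1671 in 3'-Asp KD cells against 1651. The log2 ratios were -0.26, -0.84 and 0.01, with an R-Luc SD of 0.15. The 5'-Asp KD value stood below the other 5. OIP5, the gene on the opposite strand, which encodes a centromere protein, had -0.37, -0.63 and -0.28, and this was the 1 pair in which both partners were lower on an array.

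USP46-AS1, now USP46-DT (chr4:52659406-52661498, plus strand), was lower on both arrays of 5' fragments. It had 388.5 in 5'-Lys KD cells against 618 in R-Luc cells, 344 in 5'-Asp KD cells against 543, and 509 in 3'-Asp KD cells against 522. Its log2 ratios were -0.69, -0.67 and -0.04, with an R-Luc SD of 0.06. USP46, a deubiquitinase gene whose start lies 105 bp away, had -0.44, -0.33 and 0.13, so its ratios were smaller and within 1.5-fold.

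FAM13A-AS1 was lower on both Asp arrays, with 534 in 5'-Lys KD cells against 452 in R-Luc cells, 167 in 5'-Asp KD cells against 280, and 318 in 3'-Asp KD cells against 527. On the log2 scale the ratios were 0.23, -0.76 and -0.73, and the R-Luc SD of 0.42 was high. Against the mean R-Luc signal the 3'-Asp KD ratio was -0.33, below 1.5-fold. CECR5-AS1, now HDHD5-AS1, was at the threshold on the same arrays, with 0.12, -0.58 and -0.59, of which the last counts as lower.

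ZNF674-AS1 (chrX:46545490-46548475, plus strand) was lower after 5'-Asp KD. It had 1791 in 5'-Lys KD cells against 1953 in R-Luc cells, 1126 in 5'-Asp KD cells against 1787, and 1294 in 3'-Asp KD cells against 1765. This gave log2 ratios of -0.14, -0.68 and -0.45. The R-Luc values lay close together (R-Luc SD 0.06), and by the dye labels both Asp knockdown values were below all of them. TRAM2-AS1 was also lower after 5'-Asp KD, with -0.24, -0.66 and -0.14 and an R-Luc SD of 0.09.

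ZC3H18-AS1 was lower after 3'-Asp KD, with -0.03, 0.27 and -0.84, but its R-Luc SD was 0.50. PRR34-AS1 was lower on the same array, with -0.0021, -0.28 and -0.67. FOXN3-AS1 was the 1 member higher there, with -0.28, -0.08 and 0.65. FOXN3, a gene of the forkhead transcription factor family, had -1.08, -0.03 and -0.09, so it was lower on the 5'-Lys KD array, where its antisense RNA was within 1.5-fold.

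DPP9-AS1 was higher on both arrays of 5' fragments. It had 6383 in 5'-Lys KD cells against 4076.5 in R-Luc cells, 3802 in 5'-Asp KD cells against 2449, and 4764 in 3'-Asp KD cells against 3507. The log2 ratios were 0.63, 0.62 and 0.44, with an R-Luc SD of 0.27. Against the mean R-Luc signal the 5'-Asp KD ratio was 0.26. RUSC1-AS1 was higher after 5'-Lys KD, with 0.70, 0.16 and 0.50, and ZBED5-AS1 likewise, with 0.61, 0.14 and 0.09. BAIAP2-AS1, now BAIAP2-DT, was higher after 5'-Asp KD, with 0.47, 0.69 and 0.24. BAIAP2, an adaptor gene of the actin cytoskeleton 432 bp away, had -0.0084, 0.30 and 0.07.

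Several members close to the threshold passed it only with some settings. Against the mean R-Luc signal of all arrays, BAIAP2-AS1 had 0.47 after 5'-Asp KD, and LINC01278 had 0.57 and ZBED5-AS1 0.52 after 5'-Lys KD. On the 3'-Asp KD array, FOXN3-AS1 had 0.57, LINC01089 -0.51, CECR5-AS1 -0.49 and PRR34-AS1 -0.48. With centring on all genes, DPP9-AS1 had 0.55 and LINC00869 0.51 after 5'-Lys KD. After normexp background correction LINC01114 had -0.58 after 5'-Asp KD. All of these are within 1.5-fold, with the sign kept.

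NFYC-AS1 and HNRNPU-AS1 were read by probes of opposite sign. NFYC-AS1 had 0.43, 0.41 and 0.55 on one probe and -0.92, -0.72 and -0.38 on the other, so its mean near 0 stands for neither. HNRNPU-AS1, whose symbol RefSeq now lists as a synonym of HNRNPU itself, had 0.61, 0.45 and 0.21 against -0.32, -0.16 and -0.72.

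Of the 79 antisense RNAs, 78 had their partner gene on the array, and in 59 pairs both were above the floor. RefSeq coordinates placed 57 antisense RNAs relative to their partner, 56 on the opposite strand, and in 34 the starts lay within 1000 bp. The one not opposite was HNRNPU-AS1, which RefSeq matched to HNRNPU, so its placement sets that gene against itself. This pair is kept among the 59. Across the 59 pairs of an array, log2 ratios of the antisense RNA and its partner correlated at r = 0.23, 0.47 and 0.20 (Spearman's rho 0.22, 0.37 and 0.32). These describe genes of 1 hybridisation, which share its labelling and are not independent replicates. Among 28 pairs with starts within 1000 bp, r was 0.21, 0.46 and 0.17, and among 16 pairs farther apart 0.32, 0.57 and 0.21. In 0 pairs were both partners higher, or the partners called in opposite directions, on any array. Few partner genes were called at all. Of the 59, 4, 2 and 2 were higher and 4, 1 and 0 lower. Over all genes 4.43%, 3.33% and 2.14% were higher and 6.86%, 4.03% and 2.36% lower. With so few calls, the lack of joint calls is a description only. MMP24, a membrane metalloproteinase gene, was at least 1.5-fold higher after 5'-Lys KD and, by the dye labels, after 5'-Asp KD. It had 1.07, 1.39 and 0.40, with a wide R-Luc SD of 0.47. MMP24-AS1, now the coding gene MMP24OS, had 0.17, 0.53 and 0.27.

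**Figure D5:**
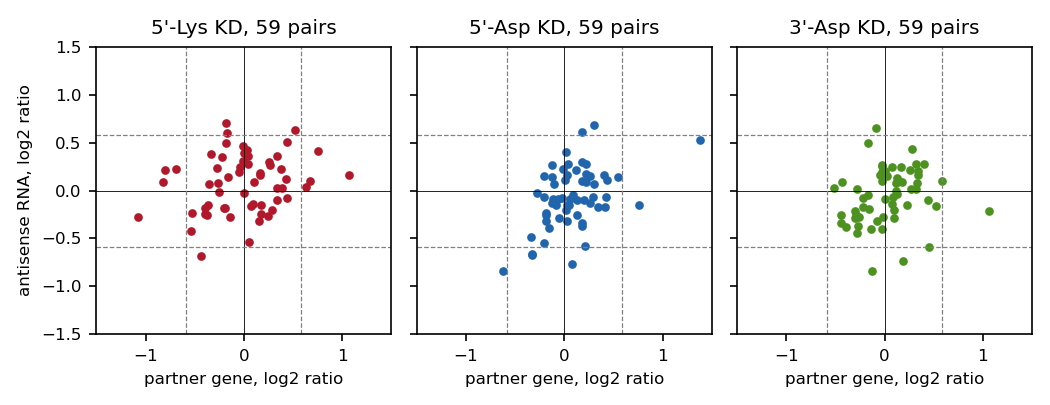
Log2 ratio of each antisense RNA (vertical) against that of its partner gene (horizontal), both Cy3 over Cy5, for 59 pairs above the floor on each array; dashed lines mark 1.5-fold. OIP5-AS1 and OIP5 are the 1 pair beyond the line in both, in the lower left of the 5'-Asp KD panel.

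Genes that remove noncoding RNAs were described from the same arrays. Among 11 factors of nonsense-mediated decay above the floor, which degrade many spliced host transcripts, 1 was higher after 5'-Lys KD (SMG6, 0.61), 0 passed after 5'-Asp KD, and 2 were lower after 3'-Asp KD (SMG5, -0.73, and MAGOH, -0.63). Their medians were 0.09, -0.02 and -0.06. Of all genes, 4.43% were higher after 5'-Lys KD and 2.36% lower after 3'-Asp KD. Among 16 genes of the nuclear exosome and its adaptors, which trim and degrade nuclear RNA, 0 passed after 5'-Lys KD. After 5'-Asp KD 3 were lower (EXOSC8, -0.78, EXOSC9, -0.68, and EXOSC1, -0.64). After 3'-Asp KD 2 were lower (EXOSC7, -0.86, and EXOSC8, -0.62). The medians of this list were 0.06, -0.19 and -0.01. Of all genes, 4.03% were lower after 5'-Asp KD and 2.36% after 3'-Asp KD, and with lists this short a count of 2 or 3 is a description only.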

How the data were processed

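Total RNA of LNCaP cells was hybridised on 3 two-colour arrays, and array work and data acquisition were done by a service company, per the labels. Each deposited intensity table covers 34183 probes in 2 columns, 1 per dye. Sources used here do not state scanner settings or background correction. The deposited score table holds signed fold changes, which equal the first over the second column times 1 constant per array (log2 of -0.021, -0.017 and -0.013). The intensities were used as given. Of the probes, 28048 had 1 symbol in the platform annotation. Log2 values of a gene's probes were averaged, and log2 ratios were centred on the array median of 10160 genes at or above the 50th percentile of signal (log2 of 7.04). Current names, coordinates and sequences came from RefSeq tables of GRCh38.p14. Of the members, 125 were matched by accession, 3 by accession and symbol, 10 by symbol and 11 by synonym.

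With n = 1 array per knockdown there was no test, and 1.5-fold set a call. The R-Luc SD is that of a gene's centred Cy5 log2 signals over 3 arrays. The members and lists were chosen with earlier results of these data known. The text names the members that passed 1.5-fold and all hosts. Of members with several probes or bright signal, and of antisense RNAs with partners, it names some and leaves out others. The steps were tested on simulated data. Alternatives were loess within arrays (limma 3.58.1 in R 4.3.3), normexp with an offset of 50, the deposited folds, the mean Cy5 signal as control, other centring, the brightest probe, current symbols, floors of 7 and 9, a 2-fold threshold and the column-name direction. For the mean Cy5 signal as control, average signals were first quantile normalised between arrays (Aquantile), so both steps enter a shift under this alternative. The remaining steps used pandas 2.3.3 and numpy 2.4.6 in Python 3.11.15. The number of arrays limits the precision.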

Additional observations from a re-analysis of the deposited data

How the results depend on the processing

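Each array pairs a knockdown with an R-Luc sample, and the ratios use this pairing. No test over replicate pairs was possible because the labels carry no replicate numbers and each knockdown has 1 array. Percentages in brackets are the share of all genes above the floor under the same setting. The number higher after 5'-Lys KD (6, 4.43%) became 12 (4.62%) against the mean Cy5 signal and 2 (2.87%) with centring on all genes. It became 11 (4.78%) with the brightest probe and 0 (0.523%) at 2-fold. The number lower (4, 6.86%) became 1 (6.57%) with a floor of 9 and 2 (1.36%) at 2-fold. The number higher after 5'-Asp KD (4, 3.33%) became 0 (2.95%) against the mean Cy5 signal. It became 7 (3.46%) with the brightest probe, 8 (4.03%) by the column names and 0 (0.291%) at 2-fold. The number lower (8, 4.03%) became 3 (3.73%) with a floor of 9 and 15 (4.32%) with a floor of 7. It became 4 (3.33%) by the column names and 0 (0.5%) at 2-fold. The number higher after 3'-Asp KD (1, 2.14%) became 0 against the mean Cy5 signal (2.83%) or with centring on all genes (1.28%). It became 2 with the brightest probe (2.32%) or a floor of 7 (2.28%). By the column names it became 6 (2.36%), and at 2-fold 0 (0.209%). The number lower (6, 2.36%) became 2 against the mean Cy5 signal (2.77%) or with a floor of 9 (1.96%). It became 11 (2.58%) with a floor of 7, 1 (2.14%) by the column names and 0 (0.256%) at 2-fold. The floors of 9 and 7 leave 91 and 202 members and the brightest probe 168; otherwise the cause was not tested. No median moved by more than the SD of the members' median Cy5 signal between arrays (0.13). This SD is larger than the main medians themselves, so it cannot show that a median kept its size or sign. With centring on all genes the 5'-Lys KD median went from 0.08 to 0.0010, and that of all genes above the floor became -0.08. The restriction to members now annotated as long noncoding RNAs, added after the data were seen, left all counts unchanged.

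The column names turn the sign of 19 called values. For 5'-Asp KD these become -0.69 (BAIAP2-AS1), -0.62 (DPP9-AS1), 0.76 (FAM13A-AS1), -0.73 (LINC00174), 0.69 (LINC01114), -0.76 (MALAT1), 0.93 (MIR17HG), 0.84 (OIP5-AS1), 0.65 (SNHG1), 0.66 (TRAM2-AS1), 0.67 (USP46-AS1) and 0.68 (ZNF674-AS1). For 3'-Asp KD they become 0.59 (CECR5-AS1), 0.73 (FAM13A-AS1), -0.65 (FOXN3-AS1), 0.76 (LINC01089), 0.82 (MIR17HG), 0.67 (PRR34-AS1) and 0.84 (ZC3H18-AS1). Of 29 called values, 28 stayed past 1.5-fold with loess, 23 with normexp, 18 against the mean Cy5 signal, 23 with centring on all genes, 28 with the brightest probe, and 29 with the deposited folds or current symbols. MIR17HG, not a member with a floor of 9, stayed past 1.5-fold and lower under the other alternatives that give its ratio, the column names apart, from -1.49 to -1.09 for 5'-Lys KD, -1.01 to -0.59 for 5'-Asp KD and -0.93 to -0.72 for 3'-Asp KD. At 2-fold it would pass after 5'-Lys KD only.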
